A study of Macaca fascicularis with 605 samples.

Results

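Germ cell precursors of the early cynomolgus monkey embryo (Macaca fascicularis) were compared with cells of the primitive streak from the same embryonic days. Both classes were chosen by transcript levels in RPM, a unit that corrects each cell's read number for its sequencing depth. A germ cell precursor held SOX17 and TFAP2C at 50 RPM or more and POU5F1 at 200 RPM or more. A streak cell held T (brachyury) at 50 RPM or more and POU5F1 at 100 RPM or more, with SOX17 and TFAP2C each under 20 RPM. These gates found 30 germ cell precursors and 50 streak cells among the 379 cells of embryonic days 13, 14, 16 and 17 (E13, E14, E16 and E17), out of 605 cells in the series. The precursors numbered 8 at E13, 2 at E14, 15 at E16 and 5 at E17, and the streak cells 7, 9, 25 and 9. Cells with POU5F1 at 100 RPM or more and T, SOX17 and TFAP2C each under 20 RPM served as a second reference. They numbered 26, 22, 48 and 27 on the 4 days and are called T-negative epiblast cells. That is the name of the gate, and some of the cells went against it. A cell of E16 held NANOG and SOX2 at 0 and the mesoderm gene MESP1 at 635.7 RPM. The extraembryonic mesenchyme markers COL3A1, COL6A1, LUM and POSTN summed to a median of 3.3 RPM but reached 28900 RPM.

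Per the labels' protocols, the piece of each implantation site that was dissociated into single cells held epiblast, amnion, hypoblast and yolk sac endoderm. Each library was 1 cell, read from the 3-prime end of its transcripts by SC3-seq. The labels name no animal, so the number of embryos behind a day is not known here, and a class on 1 day was taken as the unit of comparison. The series also holds 8 ESCs of the reporter line 656BTAG and 25 germ cells of fetal gonads. It further holds 12 reporter-positive primordial germ cell-like cells (PGCLCs), sorted at day 8 of induction in 2 media (GK15 and aRB27). These groups are used below only to place levels, with the PGCLCs pooled over the 2 media. The gonadal germ cells were pooled over all gonad labels and are not split by age here.

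Primate germ cells are set aside around the onset of gastrulation, when cells of the posterior epiblast and streak, and in the cynomolgus monkey the early amnion, receive BMP and WNT signals. SOX17, TFAP2C and PRDM1 (BLIMP1) form the core of the regulatory network in primate germ cell precursors, which express T at first and keep POU5F1 and NANOG while SOX2 is shut off. Streak cells share T and POU5F1 with them but go on towards mesoderm and endoderm under EOMES, MIXL1 and MESP1.

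The gate genes describe the classes and support no result. In the precursors SOX17 ran from 60.4 to 1510 RPM (median 505), TFAP2C from 50.5 to 1398 (319) and POU5F1 from 535 to 2778 (1672). T was not part of their gate and stood between 130.9 and 1110 RPM (median 610.5) in all 30. In the streak cells T ran from 54.9 to 2716 RPM (median 342) and POU5F1 from 260 to 2755 (913). Just outside the precursor gate, 13 cells missed it by SOX17 alone, the nearest at 19.5 RPM, 22 missed it by TFAP2C alone, the nearest at 23.2 RPM, and none missed it by POU5F1 alone. Because the cells were picked by genes of the same profiles that were then compared, a gene whose level goes with a gate gene can differ between the classes through that choice alone.

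**Figure D1:**
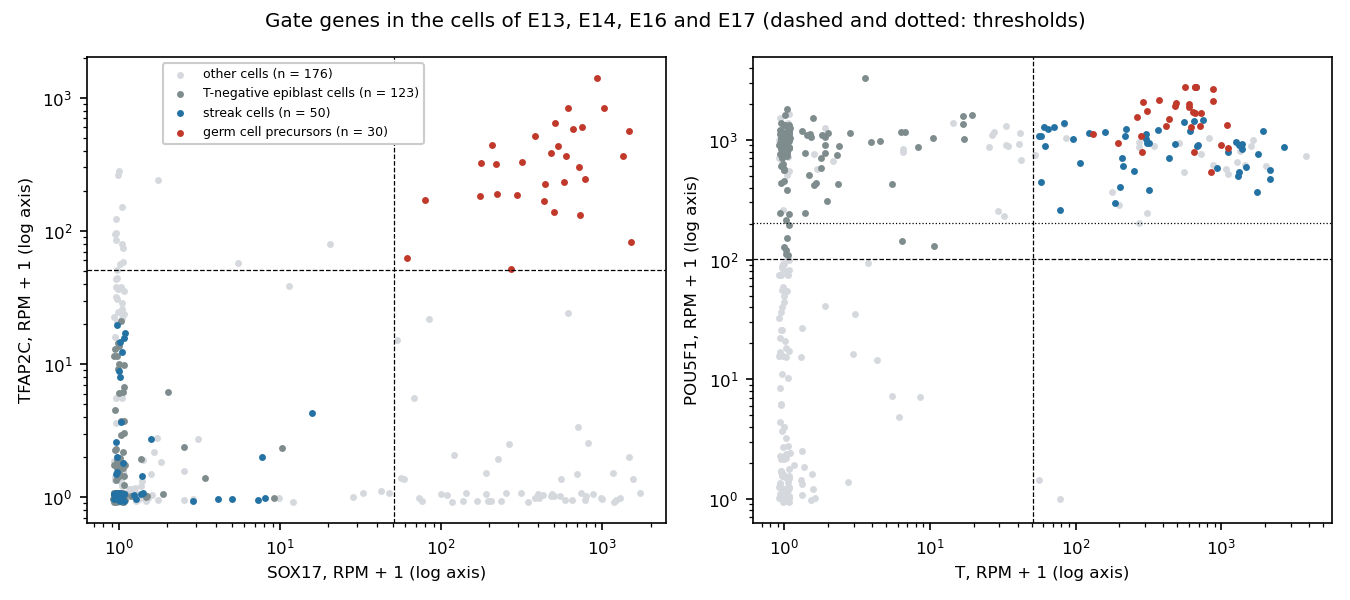
Levels of the gate genes in the 379 cells of E13, E14, E16 and E17: SOX17 against TFAP2C (left) and T against POU5F1 (right), each as RPM + 1 on log axes, with the gate thresholds as dashed and dotted lines; points under 5 RPM are spread slightly. The 30 precursors fill the upper right corner of the left plot, as their gate requires, and on the right they lie among the streak cells.

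The label was checked against the fixed markers outside the gate. PRDM1 reached 10 RPM in 25 of 30 precursors and LMO2, a transcriptional cofactor of the LIM-only family, in 24 of 30. NANOS3, an RNA-binding protein that protects germ cells, reached 10 RPM in 9 of 30. In the 50 streak cells these 3 markers reached 10 RPM in 1, 8 and 1 cells. PRDM1, KIT and LMO2 were not particular to the precursors. An E13 cell outside the gates, with SOX17 at 1005 RPM and TFAP2C at 0, held them at 531.4, 577 and 137.1 RPM. Such cells varied: another of E13 held them at 414.9, 647.8 and 0.37 RPM, and another at 0, 19.34 and 1.49 RPM. The 5 precursors with PRDM1 under 20 RPM, 1 of E14 and 4 of E16, went against the label. They held NANOG at 18.1 to 237 RPM, below the 689 to 2802 RPM of the other 25. KIT stood at 0 to 22.2 RPM (11.1 to 1002 in the other 25) and TFCP2L1 at 0 (0 to 495.4), so these ranges met or overlapped. The 5 also held the streak gene MIXL1 at 127.5 to 1308 RPM (0 to 1175 in the other 25). GATA3, a factor of amnion and trophectoderm, stood at 114.7 to 431.9 RPM (0 to 245.8). The amnion genes TFAP2A, ISL1 and VTCN1 stood at 9.93 to 166.3, 0 to 134.8 and 0 to 5.65 RPM in the 5. In 4 other precursors the endoderm factor FOXA2 stood at 104.4, 154.5, 218.1 and 593.2 RPM. These splits were noticed after the values had been seen and carry no test. Fits without the 5 precursors of PRDM1 under 20 RPM are given below as a description. Those cells were chosen for the lack of a germ cell gene, so calls gained without them are no support. The name germ cell precursors is kept as the name of the gate.

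Libraries carry a code in their titles, whose meaning the labels do not give. All 13 cells of these days with the code MS117 were precursors and no streak cell carried it, so for these cells the code and the class cannot be told apart; 21 gonadal germ cells carry it too. Depth was alike. It ran from 708797 to 4867180 reads (median 1904274, from 28 of 30 cells) in precursors and from 1027076 to 4313940 reads (median 2030228) in streak cells, with medians of 9794 and 9983 genes detected. No 2 libraries were identical. Doublets were not called.

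Day means of the classes were compared with limma on log2(mean RPM + 1), with the day as a block, over the 3 days with at least 3 cells of both classes (E13, E16 and E17; 28 precursors and 41 streak cells). E14, with 2 precursors, enters the ranges over cells but not the tests. Means are given with the SD over the 3 day means, and differences are precursors minus streak cells on that log2 scale, with their standard error. Of 9671 genes tested, 400 (4.14%) were higher in precursors and 385 (3.98%) lower (limma, adjusted p below 0.05 by the method of Benjamini and Hochberg). The counts of gene lists below stand against these shares, and a list with few calls can be near them. The same genes were fitted against T-negative epiblast cells, where 727 (7.23%) of 10051 were higher and 749 (7.45%) lower; both comparisons use the same precursors. Of all calls against streak cells 50.96% were higher, and this share moved to 34.85% when logs were averaged over cells and to 37.02% with medians over cells. Without the MS117 cells 74 genes were called higher and 52 lower. That run held 16 precursors and took days with at least 2 cells per class. A call lost there is therefore not by itself a smaller difference. Among lost calls, the difference of CDK1 went from -1.49 to -2.18 and that of EOMES from -1.95 to -0.99. Of the 92 called genes named in the text, 39 were called without the MS117 cells and also without each day in turn. Of the 39, 19 were called by edgeR on recovered reads. In the lists of shared pluripotency, streak factors, streak signals, NODAL, BMP, MHC class I and dividing-cell genes, edgeR called no tested member. In units of day and title code, with 12 precursors and 19 streak cells, 10 of the 92 were called; PRDM1 was among them (adjusted p = 0.01295 by limma), and NANOG, SOX2, VIM and GAPDH were not (0.0548, 0.1527, 0.0935 and 0.1848).

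Early germ cell genes were mostly higher or not called in the precursors. Of 20 tested members of a list of regulators and surface markers of primate germ cells, 8 were higher than in streak cells and 1, the arginine methyltransferase PRMT5, was lower. The median difference of the list was 2.11, against 0.01 over all genes tested. The shares over all genes tested were 4.14% higher and 3.98% lower. Without the 5 precursors of PRDM1 under 20 RPM 12 of 21 tested were higher and 2 lower, without the MS117 cells 6 of 20 were higher and none lower, and edgeR called 5 higher and none lower. The 8 were PRDM1, KIT, CXCR4, TFCP2L1, PDPN, SOX15, LMO2 and KLF4.

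PRDM1, the repressor that silences somatic genes in germ cells, ran from 0 to 672 RPM (median 152.8) in the 30 precursors and from 0 to 123.2 (median 0) in the 50 streak cells. It was listed at 0 in 41 streak cells and in 4 precursors, and only 1 streak cell, of E17, reached 10 RPM. The day means were 219.2 ± 95.97 RPM (SD, n = 3 days) in precursors and 4.75 ± 7.78 in streak cells, a difference of 6.18 ± 0.75 (SE; adjusted p = 0.000941). The 3 days gave 8.12, 6.93 and 3.50, lowest at E17, the day of that 1 streak cell. By edgeR PRDM1 was not called (adjusted p = 0.0893).

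KIT, the receptor of stem cell factor that germ cells need to survive and migrate, ran from 0 to 1002 RPM (median 146.9) in precursors and from 0 to 73.7 (median 0) in streak cells. It reached 10 RPM in 28 of 30 precursors and in 11 of 50 streak cells. The difference was 5.05 ± 0.46 (adjusted p = 0.000172), and 5.01 (adjusted p = 0.00056) without the MS117 cells. CXCR4, the chemokine receptor that guides migrating germ cells, was more uneven. It was at 10 RPM or more in 17 of 30 precursors (median 27.1, highest 641 RPM) and in 8 of 50 streak cells, and differed by 3.36 ± 0.63 (adjusted p = 0.0087). Its call was lost without the MS117 cells (adjusted p = 0.235) and without E17 (adjusted p = 0.0942).

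LMO2 ran from 0 to 713 RPM (median 154.2) in precursors and from 0 to 27.7 (median 0) in streak cells. It differed by 5.55 ± 0.44 (adjusted p = 6.93e-05), with 5.59, 5.81 and 5.23 on the 3 days. TFCP2L1, a factor of naive pluripotency and of primate germ cells, was uneven in precursors. It was at 10 RPM or more in 19 of them and listed at 0 in 10, while its highest value in a streak cell was 9.31 RPM. It differed by 7.08 ± 0.68 (adjusted p = 0.000203), with all 9 streak cells of E17 at 0.

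SOX15, a SOX factor of germ cells, was present at some level in every precursor (1.47 to 286.5 RPM, median 125.8), against a median of 0 and a highest value of 59.9 RPM in streak cells. PDPN (podoplanin), a surface glycoprotein, reached 10 RPM in every precursor (median 729, highest 1767 RPM) and ran from 0 to 719 RPM (median 146.6) in streak cells, so the classes overlapped. The differences were 4.40 ± 0.50 for SOX15 (adjusted p = 0.00069) and 2.35 ± 0.26 for PDPN (adjusted p = 0.000572). KLF4, a factor of naive pluripotency, differed by 3.56 ± 0.75 (adjusted p = 0.0149), was listed at 0 in 12 precursors, and was no longer called without the MS117 cells (adjusted p = 0.0881) or without E17 (adjusted p = 0.12).

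Other germ cell regulators did not pass with all precursors. Without the 5 precursors of PRDM1 under 20 RPM, NANOS3, DND1 and PRDM14 had adjusted p of 0.0395, 0.0469 and 0.0392 by limma. Because those cells were left out after the values had been seen, this is a description and no support. NANOS3 stood between 0 and 81.3 RPM (median 5.74) in precursors and was listed at 0 in 48 of 50 streak cells. Its difference was 3.73 ± 1.15 (adjusted p = 0.0688), and it passed without E16 (adjusted p = 0.0266) and against T-negative epiblast cells (adjusted p = 0.0194). Without E13 or without E17 it was not tested. DND1, the partner of NANOS proteins, had a difference of 1.35 ± 0.41 (adjusted p = 0.0661), ARID5B, a chromatin-binding protein, 2.39 ± 0.73 (0.0673; passed without E13, adjusted p = 0.0142), and PRDM14, a regulator of mouse germ cells, 1.86 ± 0.55 (0.0597; passed without E13, adjusted p = 0.0228). DPPA3 (STELLA) stood at a median of 3.19 RPM in precursors and 0 in streak cells, with a difference of 1.22 ± 0.95 (adjusted p = 0.462).

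Genes of the later germ line were little separated. Of 10 tested members of a list from gonadal germ cells, meiosis and the piRNA pathway, only DMRT1 was called. The median difference was 0.80. Of all genes tested 8.12% were called, so this count is near that share. DMRT1, a DM-domain factor of testis and germ cells, was at 10 RPM or more in 16 of 30 precursors (highest 476 RPM), on each of the 3 days, and never above 0.4 RPM in a streak cell. It differed by 5.45 ± 0.92 (adjusted p = 0.0052). The piRNA factors PIWIL2 and MOV10L1 had differences of 1.52 ± 0.53 (adjusted p = 0.0984) and 3.29 ± 1.02 (adjusted p = 0.0705), and the kinase-like STK31 of 2.41 ± 0.83 (adjusted p = 0.0963), none called; MOV10L1 was called without the precursors of PRDM1 under 20 RPM (adjusted p = 0.0437).

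**Figure D2:**
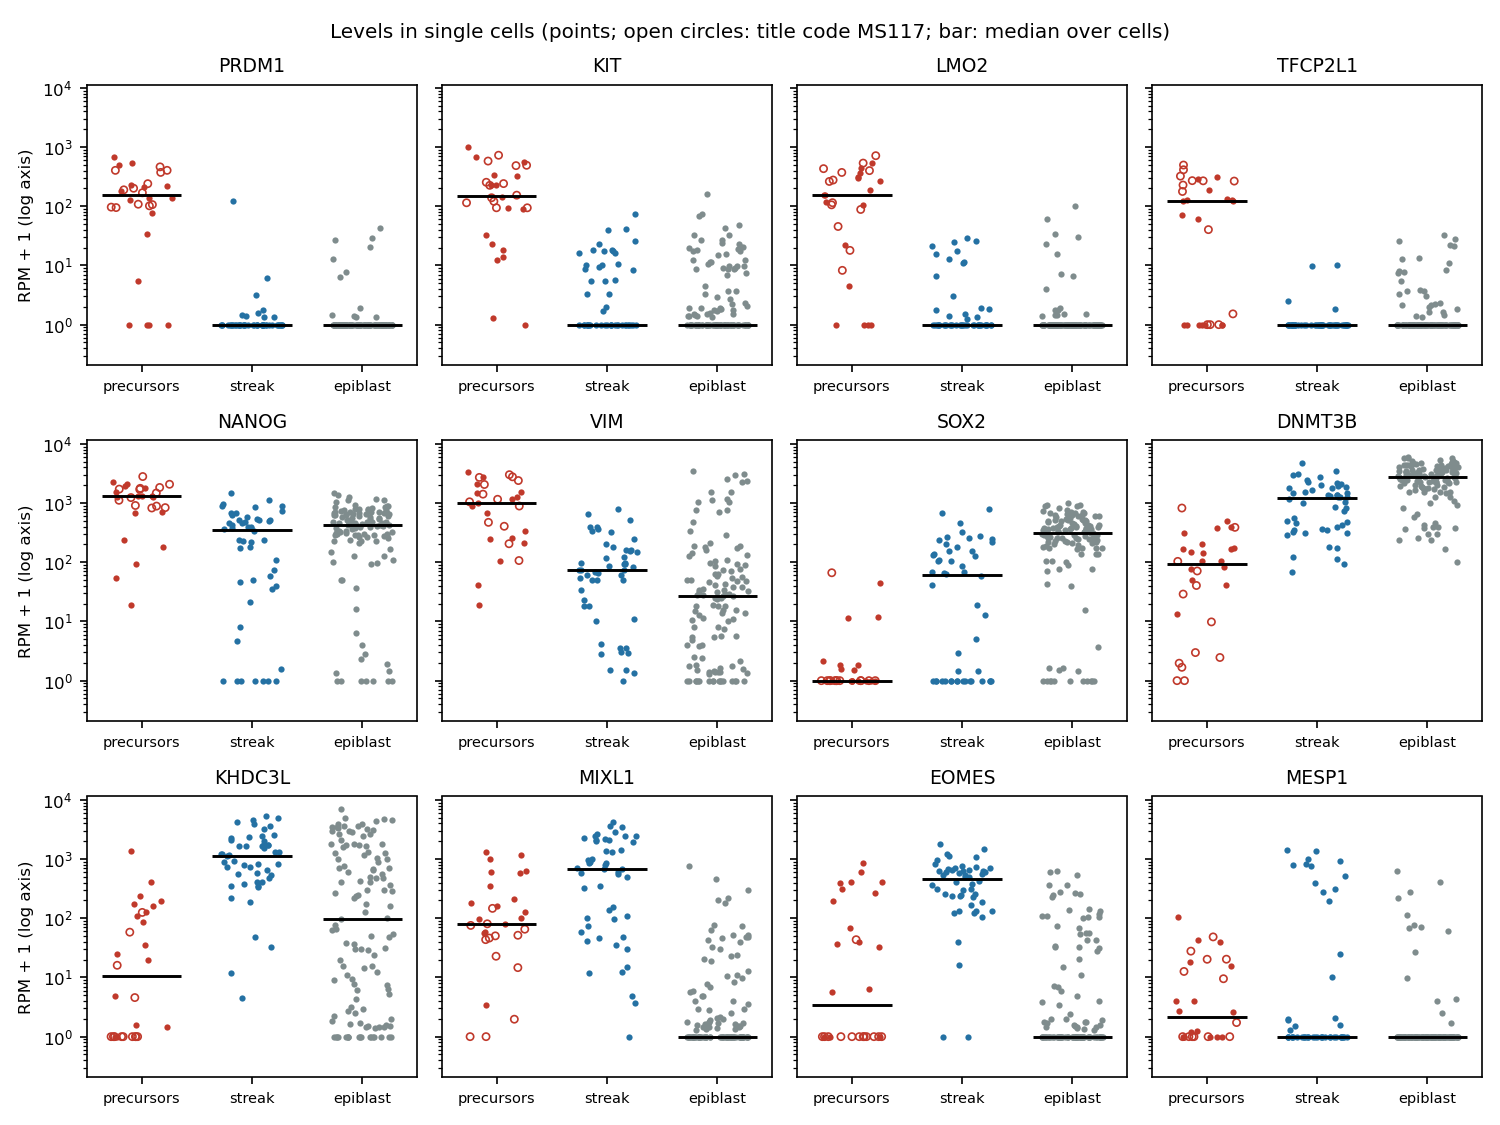
RPM + 1 (log axis) of 12 genes in each precursor (n = 30), streak cell (n = 50) and T-negative epiblast cell (n as given above) of E13 to E17; bars are medians over cells and open circles are cells with the title code MS117. PRDM1, KIT, LMO2 and TFCP2L1 have medians over 100 RPM in precursors and of 0 in streak cells, and DNMT3B and KHDC3L show the reverse order.

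NANOG set the precursors apart within the shared pluripotency genes. It ran from 18.1 to 2802 RPM (median 1295) in precursors and from 0 to 1464 (median 355) in streak cells, and differed by 1.79 ± 0.33 (adjusted p = 0.008). The day differences were uneven, at 0.61, 2.90 and 1.87, and the ranges of the classes overlapped. By edgeR NANOG was not called (adjusted p = 0.0905). LIN28A, an RNA-binding protein of pluripotent cells, was in every cell of both classes at medians of 1031 and 1500 RPM, with a difference of -0.65 ± 0.20 that did not pass (adjusted p = 0.0706; 0.0495 without E16 and 0.0257 without the precursors of PRDM1 under 20 RPM). SALL4, a zinc finger factor of stem and germ cells, had -0.60 ± 0.24 (adjusted p = 0.148). Of the 13 tested members 3 were lower, against 3.98% of all genes tested. The 3 were TERF1, a telomere protein (-2.40 ± 0.32, adjusted p = 0.00171), LIN28B (-2.02 ± 0.48, adjusted p = 0.0259) and the NODAL coreceptor TDGF1 (-1.78 ± 0.30, adjusted p = 0.00495). LIN28B (adjusted p = 0.2185) and TDGF1 (adjusted p = 0.0755) were not called without the MS117 cells, nor was LIN28B without E17 (adjusted p = 0.12).

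SOX2, the partner of POU5F1 in the epiblast, was nearly absent from the precursors. It was listed at 0 in 21 of 30, with a highest value of 65.4 RPM, against a median of 60.7 and a highest value of 788 RPM in streak cells, of which 17 were also at 0. The classes therefore overlapped at the low end, and the streak cells without SOX2 were mostly of E16, where 7 of 25 reached 10 RPM against 7 of 7 at E13. The day means were 2.30 ± 0.81 RPM in precursors and 127.8 ± 80.98 in streak cells, a difference of -5.05 ± 0.66 (adjusted p = 0.00144; 0.0902 with medians over cells). T-negative epiblast cells held 308 ± 100 RPM. By edgeR SOX2 was not called against streak cells (adjusted p = 0.0515).

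Of 20 tested genes of the postimplantation epiblast 14 were lower and 1 higher, with a median difference of -2.79. Over all genes tested 3.98% were lower and 4.14% higher. By edgeR 3 of the 20 were lower and 1 higher. Among the 14 were SOX2, the de novo DNA methyltransferase DNMT3B, the WNT antagonists SFRP1 and SFRP2, the WNT receptor FZD7, the matrix proteoglycan VCAN, the surface protein CD24 and the deubiquitinase USP44. Without the MS117 cells 8 remained lower; the calls lost included those of ZIC2, ZIC5, SOX11, FGF2 and CRABP2 (adjusted p of 0.145, 0.165, 0.198, 0.137 and 0.129). SOX11, FGF2 and ZIC5 were also lost without E13 (0.116, 0.0625 and 0.0543) and, with ZIC2, without E17 (0.116, 0.0689, 0.149 and 0.0536).

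DNMT3B was detected in every streak cell, from 68.2 to 4792 RPM (median 1210), and ran from 0 to 822 RPM (median 92.1) in precursors. The day means were 117.6 ± 69.98 and 1252 ± 565 RPM, a difference of -3.47 ± 0.34 (adjusted p = 0.000208), and 2486 ± 605 RPM in T-negative epiblast cells. CD24 ran from 376 to 5401 RPM in streak cells and from 0 to 2326 RPM in precursors, with a difference of -2.10 ± 0.31 (adjusted p = 0.00267). VCAN, at 11.6 RPM or more in all 50 streak cells, was listed at 0 in 18 precursors and differed by -4.66 ± 0.51 (adjusted p = 0.000564). Some precursors reached streak levels for each of these 3 genes.

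The exception was ETV5, an ETS factor of FGF signalling. It ran from 0 to 557 RPM (median 174) in precursors and from 0 to 115.7 RPM (median 20.52) in streak cells, and was higher by 2.89 ± 0.35 (adjusted p = 0.000899). It was higher in the day means of all 3 days, by 3.37, 2.59 and 2.70.

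Of the naive pluripotency genes, 10 tested, KLF4 and TFCP2L1 were higher and DPPA5 and KHDC3L lower. Over all genes tested the shares were 4.14% higher and 3.98% lower. KHDC3L, a member of the maternal complex of oocytes and cleavage embryos, ran from 3.42 to 5346 RPM (median 1145) in streak cells and was at 10 RPM or more in 49 of 50, while in precursors it had a median of 9.47 RPM and was listed at 0 in 11 of 30. The day means were 95.2 ± 38.3 (SD) and 1416 RPM, with a difference of -3.97 ± 0.29 (adjusted p = 4.41e-05). Against T-negative epiblast cells, which varied from 0 to 6927 RPM, it did not pass (-1.16 ± 1.07, adjusted p = 0.496). DPPA5, an RNA-binding protein of early embryos, differed from streak cells by -1.998 ± 0.33 (adjusted p = 0.00427), and was not called without the MS117 cells (adjusted p = 0.12).

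**Figure D3:**
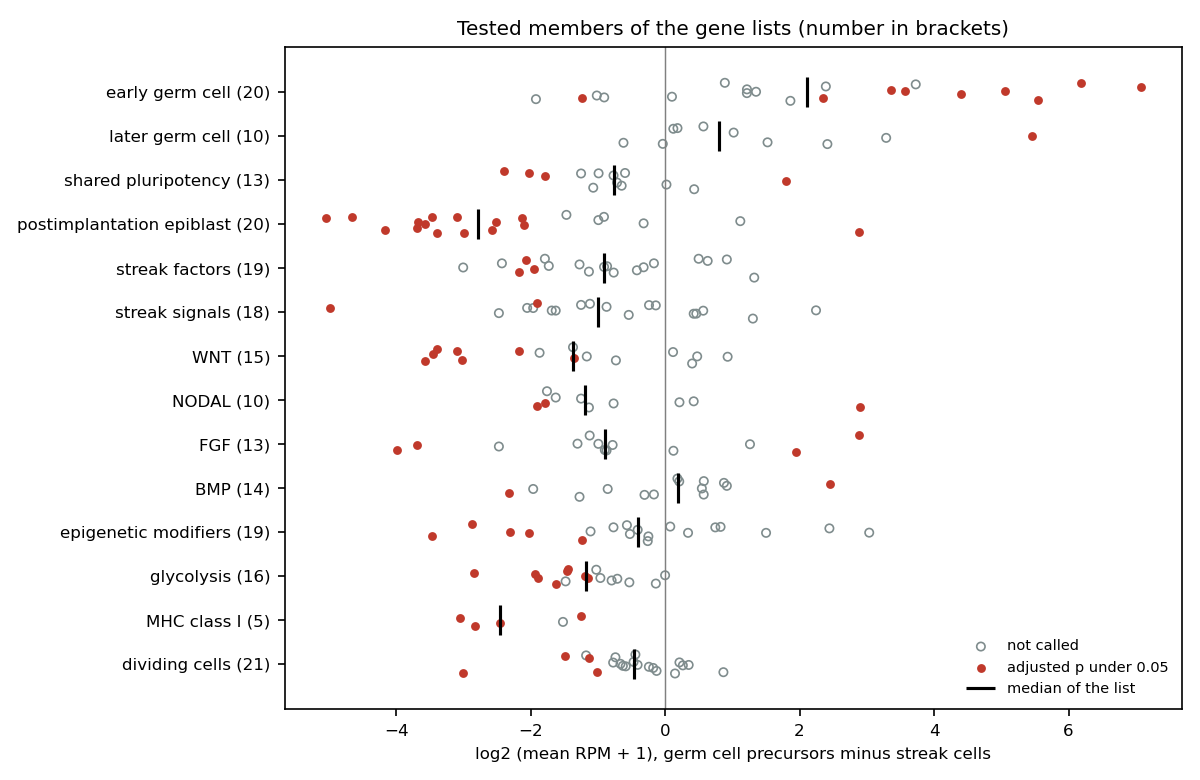
Difference between precursors and streak cells (x axis, log2 of mean RPM + 1) of each tested member of 14 gene lists (y axis, number of members in brackets); filled points passed the limma test, open points did not, and bars are list medians. Of the early germ cell genes 8 lie to the right as called, and of the postimplantation epiblast genes 14 lie to the left.

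Transcription factors of the streak were compared next. Of 19 tested members of that list none was higher and 3 were lower than in streak cells (median -0.91). Against T-negative epiblast cells 5 were higher and none lower (median 1.27). Of all genes tested 3.98% were lower than in streak cells and 7.23% higher than in T-negative epiblast cells. The 3 were MIXL1, EOMES and SP5. Without the 5 precursors of PRDM1 under 20 RPM, in which MIXL1 stood at 127.5 to 1308 RPM and EOMES at 32.3 to 862.6 RPM against medians of 64.3 and 0 RPM in the other 25, 6 of 19 were lower. All 3 calls were lost without the MS117 cells, whose precursors held EOMES at 0 with 1 exception at 42.4 RPM.

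MIXL1, a homeobox factor of mesendoderm, was at 10 RPM or more in 26 of 30 precursors (median 78.6, highest 1308 RPM) and in 47 of 50 streak cells (median 671, highest 4280 RPM). It differed by -2.07 ± 0.44 (adjusted p = 0.0159; 0.198 without the MS117 cells and 0.0736 without E17), and by -0.30 at E13 against -2.38 at E16 and -3.54 at E17. EOMES, a T-box factor of the streak, was at 10 RPM or more in 13 of 30 precursors and 48 of 50 streak cells, with medians of 2.37 and 460 RPM. It differed by -1.95 ± 0.27 (adjusted p = 0.00194; 0.137 without the MS117 cells). SP5, a target of WNT signalling, differed by -2.17 ± 0.50 (adjusted p = 0.0221; 0.258 without the MS117 cells and 0.136 without E17). MIXL1 (3.68 ± 0.54, adjusted p = 0.00154), EOMES (1.496 ± 0.33, adjusted p = 0.0109) and SP5 (2.195 ± 0.60, adjusted p = 0.0297) were each higher than in T-negative epiblast cells.

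Other streak factors changed sides by day. MESP1, the factor of nascent mesoderm, differed by 3.02 at E13, -4.28 at E16 and 3.16 at E17. At E16 13 of 25 streak cells held it at 10 RPM or more, up to 1425 RPM, whereas no streak cell of E13 or E17 went above 0.55 RPM; the precursors reached 41.8, 105.8 and 19.3 RPM on these days. HAND1, a factor of extraembryonic and lateral mesoderm, differed by 5.58, -5.27 and -0.81, and the organizer gene GSC by 3.56, -1.91 and -4.23. LHX1, another organizer gene, differed by 1.36, -4.58 and -2.15. None of these 4 passed over the 3 days (adjusted p of 0.801, 0.956, 0.68 and 0.203). EVX1, a homeobox gene of the posterior streak, had a difference of -0.76 ± 0.40 (adjusted p = 0.264) and was at 10 RPM or more in 16 of 30 precursors and 41 of 50 streak cells; without the 5 precursors of PRDM1 under 20 RPM its difference was -1.40 and it was called lower (adjusted p = 0.0498).

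Among the secreted factors and receptors of the streak, 2 of 18 tested members were lower and none higher. Of all genes tested 3.98% were lower and 4.14% higher, and so small a count is not read as a result about the list. NODAL, the ligand that patterns the streak, ran from 0 to 278 RPM (median 40.2) in precursors and from 0 to 631 (median 120) in streak cells. It differed by -1.90 ± 0.36 from streak cells (adjusted p = 0.00951; 0.07 without the MS117 cells) and by 1.88 ± 0.38 from T-negative epiblast cells (adjusted p = 0.00799), so its day means lay between the 2 classes. RSPO3, an enhancer of WNT signalling, never exceeded 5.18 RPM in a precursor and reached 786 RPM in streak cells, 31 of which were at 10 RPM or more. It differed by -4.98 ± 1.04 (adjusted p = 0.0148), and was not called without the MS117 cells (adjusted p = 0.0658). Without E16 or without E17 it was not tested. FGF4 differed by -2.47 ± 0.71 and did not pass (adjusted p = 0.0531; 0.00345 without E13 and 0.0351 without the precursors of PRDM1 under 20 RPM).

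For the signalling lists, the shares over all genes tested were 4.14% higher and 3.98% lower. Called members of the NODAL, FGF and BMP lists were few and are given as single genes. Of 15 tested WNT target, receptor and antagonist genes, 7 were lower and none higher: LEF1 (-3.02 ± 0.61), TCF7 (-1.36 ± 0.36), NKD1 (-3.45 ± 0.93), SP5, SFRP1, SFRP2 and FZD7. Without the MS117 cells SFRP1, SFRP2 and FZD7 were called, and LEF1, TCF7, NKD1 and SP5 were not (adjusted p of 0.135, 0.609, 0.183 and 0.258). SFRP1, SFRP2 and FZD7 were already counted among the postimplantation epiblast genes, and SP5 among the streak factors. By edgeR 2 of 14 tested members were lower, SFRP1 and SFRP2. Of 10 NODAL pathway genes, the signal transducer SMAD3 was higher (2.90 ± 0.61, adjusted p = 0.0149) and NODAL and TDGF1 lower. Of 13 FGF pathway genes, ETV5 and the receptor FGFR3 (1.94 ± 0.54, adjusted p = 0.0466) were higher, and FGF2 (-3.69 ± 0.87, adjusted p = 0.024) and the ERK phosphatase DUSP6 (-3.99 ± 0.81, adjusted p = 0.0125) lower. Of 14 BMP ligands and responsive genes, GATA3 was higher (2.45 ± 0.58, adjusted p = 0.0256) and ID3, an inhibitor of basic helix-loop-helix factors, lower (-2.32 ± 0.57, adjusted p = 0.0294). SMAD3, FGFR3, FGF2, DUSP6, GATA3 and ID3 lost their calls without the MS117 cells (adjusted p of 0.116, 0.636, 0.137, 0.0869, 0.528 and 0.245). TCF7 and FGFR3 were lost on leaving out any 1 day (0.0884 to 0.131 and 0.109 to 0.1525), SMAD3 without E13 (0.0506), FGF2 without E13 or E17 (0.0625 and 0.0689), GATA3 without E16 (0.167), and DUSP6 and NKD1 without E17 (0.0667 and 0.1001). NKD1 was not tested without E13 or without E16.

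Of 13 tested genes of the epithelial to mesenchymal transition list 1 was higher, near the 4.14% of all genes tested. That gene was VIM, the intermediate filament protein of mesenchymal cells. It ran from 17.9 to 3337 RPM (median 1018) in precursors and from 0 to 777 RPM (median 71.7) in streak cells. The difference was 3.42 ± 0.33 (adjusted p = 0.000203) and held on each day, at 3.21, 2.47 and 4.58. The cadherin CDH11 was lower (-3.32 ± 0.83, adjusted p = 0.0319), but not without the MS117 cells (0.1455) or on leaving out any 1 day (0.0625 to 0.107).

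Of the DNA methylation and histone modifiers, 5 of 19 tested were lower, against 3.98% of all genes tested, and none higher. Besides DNMT3B and PRMT5 they were DNMT3A, the other de novo methyltransferase (-2.30 ± 0.45, adjusted p = 0.0106), UHRF1, which directs maintenance methylation (-2.03 ± 0.49, adjusted p = 0.0284), and the H3K9 methyltransferase EHMT2 (-2.86 ± 0.56, adjusted p = 0.0106). DNMT3B was called without the MS117 cells, and DNMT3A, UHRF1, EHMT2 and PRMT5 were not (adjusted p of 0.1135, 0.222, 0.107 and 0.157). UHRF1 was also lost without E13 or E16 (0.1095 and 0.0644), and PRMT5 on leaving out any 1 day (0.0652 to 0.0899). By edgeR 1 of 17 tested members was lower, DNMT3B.

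Of 16 tested glycolysis genes, 8 were lower, against 3.98% of all genes tested, and none higher. The median difference was -1.17, and edgeR called none of the 16. The 8 were the glucose transporters SLC2A1 and SLC2A3, hexokinase HK2, and the enzymes TPI1, GAPDH, PGAM1, ENO1 and PKM. GAPDH stood at 588 ± 83.4 RPM in precursors and 1609 ± 269 in streak cells (-1.45 ± 0.20, adjusted p = 0.00205), and TPI1 at 195 ± 92.2 and 709 ± 130 RPM (-1.94 ± 0.24, adjusted p = 0.00105). GAPDH, TPI1 and PGAM1 were called without the MS117 cells, and ENO1, PKM, HK2, SLC2A1 and SLC2A3 were not (adjusted p of 0.0566, 0.0791, 0.155, 0.225 and 0.197). HK2 was also lost without E13 or E16 (0.0502 and 0.065), SLC2A1 without E17 (0.1152) and SLC2A3 without E13 or E17 (0.0625 and 0.155).

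Genes of MHC class I presentation were tested likewise. B2M (beta-2 microglobulin) stood at 67.2 ± 73.2 RPM in precursors and 380 ± 174 RPM in streak cells (-3.05 ± 0.49, adjusted p = 0.00403). Of 5 tested members of the list 4 were lower, PSMB10 and IFITM1 among them, against 3.98% of all genes tested. B2M and IFITM1 were called without the MS117 cells, and PSMB10 was not (adjusted p = 0.135), nor without E13 (0.0728) or E17 (0.112). Of 21 genes of dividing cells, TOP2A (-1.01 ± 0.25), CDK1 (-1.49 ± 0.33), RRM2 (-1.13 ± 0.24) and CCND1 (-3.01 ± 0.57) were lower and none higher. Of all genes tested 3.98% were lower. All 4 calls were lost without the MS117 cells (adjusted p of 0.159, 0.0773, 0.153 and 0.113), as were TOP2A without E13 or E17 (0.0975 and 0.13), CDK1 without E16 or E17 (0.0841 and 0.0873) and RRM2 without E16 (0.0773). Without the MS117 cells the differences of TOP2A, CDK1, RRM2 and CCND1 were -1.32, -2.18, -0.88 and -2.48. TOP2A had a difference of 0.08 in units of day and title code.

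The 12 largest rises and 12 largest falls among called genes with the same sign on all 3 days were named by rule. Besides PRDM1, TFCP2L1, LMO2 and DMRT1, the rises were the sterol exporter ABCG1, the ephrin receptor EPHB1, TCL1B of the TCL1 family, PCP4L1, the adhesion molecule PECAM1, the serotonin synthesis enzyme TPH2, the MORC family protein MORC4 and the lipase inhibitor ANGPTL4. The streak mean was under 1 RPM for 9 of these 12, so the size of their log2 differences is set largely by the pseudocount of 1 RPM. ABCG1 was at 10 RPM or more in 23 of 30 precursors (highest 706 RPM) and listed at 0 in 49 of 50 streak cells, with 2.53 RPM in the other. PECAM1 reached 10 RPM in 24 of 30 precursors, and its level differed by day, with means over cells of 295 RPM at E13, 106.4 at E16 and 42.7 at E17.

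The falls, besides SOX2, RSPO3, VCAN, USP44, DUSP6 and KHDC3L, were LDB2, a cofactor of LIM-domain factors, the activin antagonist FST, DDAH1, which breaks down methylarginines, the Notch target HES1, the glypican GPC4 and FAM101B. GPC4 was at 10 RPM or more in 49 of 50 streak cells and 11 of 30 precursors, and differed by -3.83 ± 0.55 (adjusted p = 0.00233). FST ran up to 748 RPM in precursors of E16 but not above 43.5 RPM at E13 or 4.61 at E17, and differed by -4.95, -1.20 and -7.52 on E13, E16 and E17. HES1 differed by only -0.37 at E16. Without the MS117 cells RSPO3, LDB2, DUSP6, DDAH1, HES1 and FAM101B were no longer called (adjusted p of 0.0658, 0.0672, 0.0869, 0.0755, 0.148 and 0.144). FAM101B was also lost without E13 (adjusted p = 0.105), and DUSP6, HES1 and FAM101B without E17 (adjusted p of 0.0667, 0.146 and 0.0593). RSPO3 was not tested without E16 or without E17. Without MS117, all 12 rises were called. By edgeR 9 of the 24 genes were called, KHDC3L alone among the falls. The rises PRDM1, EPHB1, PCP4L1 and PECAM1 were not called by edgeR (adjusted p of 0.0893, 0.082, 0.0691 and 0.1056). In units of day and title code limma called 5 of the 24.

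**Figure D4:**
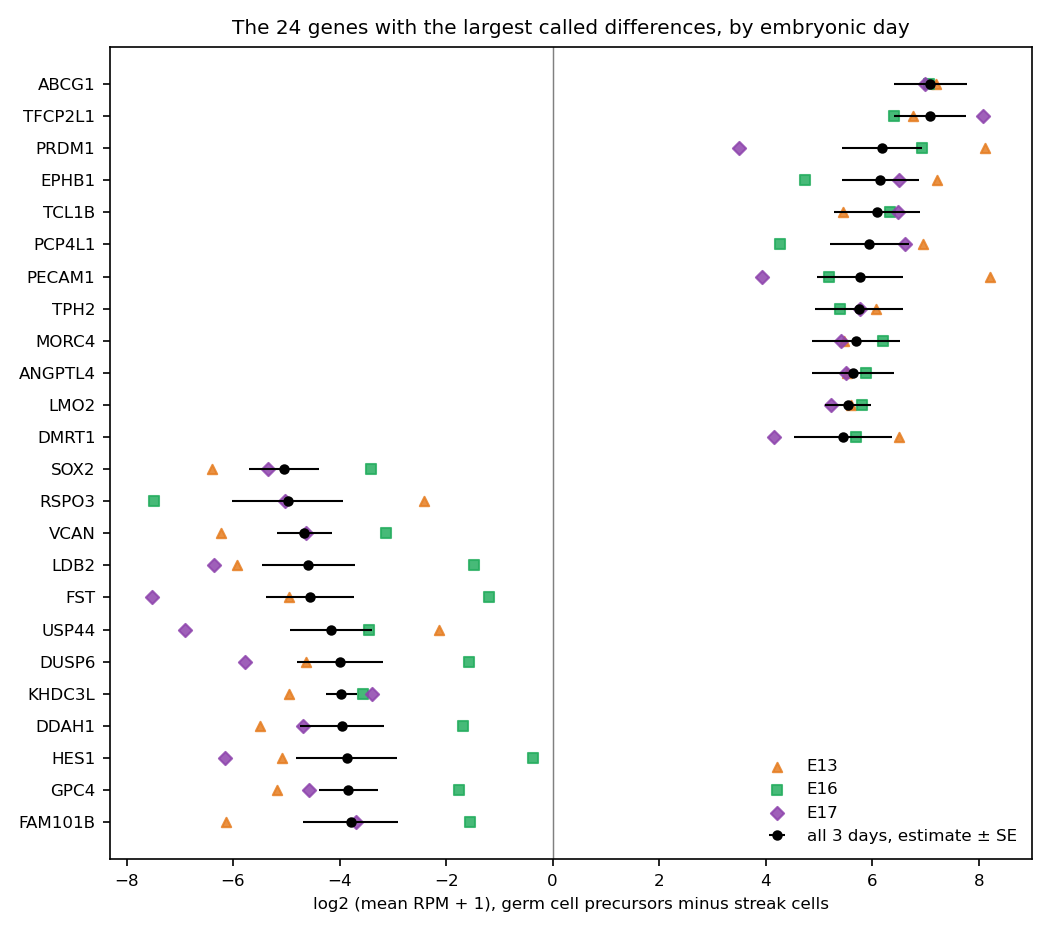
Difference between precursors and streak cells (x axis, log2 of mean RPM + 1) for the 12 largest rises and 12 largest falls (y axis) on E13, E16 and E17, with the estimate over the 3 days and its SE. Every gene has the same sign on all 3 days, and HES1, FST and LDB2 are nearest to 0 at E16.

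Within single title codes the comparison could be made in 3 groups of cells that shared a day and a code. They held 2 precursors and 2 streak cells of E13 (MS127), 7 and 10 of E16 (MS101), and 3 and 7 of E16 (MS132). The 24 genes had been picked by their differences in these same cells, so their signs here are a description and no independent support. The 12 rises were higher in precursors in all 3 groups. The 12 falls were lower in all 3 groups with the exception of MS101 at E16, where 10 of 12 were lower. That group includes the 4 precursors of E16 with PRDM1 under 20 RPM. Without the 5 such precursors, 1076 genes were called, 517 higher and 559 lower, and all 24 genes of the rule were among them.

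Markers of other cell types were measured in the same cells. GATA3, ISL1, TFAP2A, VTCN1 and GABRP, the amnion markers, summed to between 0.79 and 733 RPM (median 69.6) in precursors and between 0 and 220 RPM (median 15) in streak cells, and GABRP had means at most 0.044 RPM in both. The 6 endoderm markers summed to 0.59 to 804 RPM in precursors and to 0 to 1634 RPM in streak cells, and the 4 markers of extraembryonic mesenchyme to 0 to 2949 and 0 to 169.3 RPM. From the longer lists of endoderm, trophectoderm and extraembryonic mesenchyme genes, COL4A1, SLC7A2 and COL6A3 were higher in precursors, and all 3 calls were lost without the MS117 cells (adjusted p of 0.381, 0.328 and 0.42) and without E13 (0.0734, 0.129 and 0.0563), and those of COL4A1 and SLC7A2 also without E17 (0.1227 and 0.1067). Of the other endothelial and blood markers, CDH5 had means of 6.53 RPM in precursors and 7.19 RPM in streak cells, and TAL1 and HBZ were at 0 in all 30 precursors and at means of 0.0234 and 0 RPM in streak cells. The neural gene NES was lower (-2.45 ± 0.56, adjusted p = 0.022; 0.139 without the MS117 cells, 0.1025 without E16 and 0.118 without E17). FOS, which dissociation can induce, was higher (2.91 ± 0.61, adjusted p = 0.0151; 0.132 without the MS117 cells), 1 of 7 such genes tested. The part of other cell types, dissociation or title code in the differences was not tested.

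Levels in cultured and gonadal germ cells were set beside those of the precursors as a description. Of the 12 rises, 10 had a mean of at least 10 RPM in the 12 PGCLCs, 11 in the 25 gonadal germ cells and none in the 8 ESCs of line 656BTAG. Of the 12 falls, none reached its streak mean in PGCLCs or gonadal cells, while 6 did in the ESCs. SOX2 had a mean of 377 RPM in ESCs, 6.36 in PGCLCs and 0.0308 in gonadal cells. DMRT1 stood out among the rises. Its highest value in any PGCLC was 0.74 RPM, whereas 16 of 30 precursors and 19 of 25 gonadal cells were at 10 RPM or more. TPH2 took the opposite course, at a mean of 217.9 RPM and at least 11.5 RPM in every PGCLC, at 51.2 RPM in precursors, and at a mean of 2.29 RPM in gonadal cells, of which 1 reached 10 RPM. TCL1B was at 10 RPM or more in 16 of 30 precursors, 7 of 12 PGCLCs and all 25 gonadal cells. PECAM1 had means of 141.9 RPM in precursors, 4.86 in PGCLCs and 30.9 in gonadal cells. KHDC3L, high in streak cells, was listed at 0 in every ESC and PGCLC. The groups differ in day, tissue, culture and title code, and no test was made between them.

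**Figure D5:**
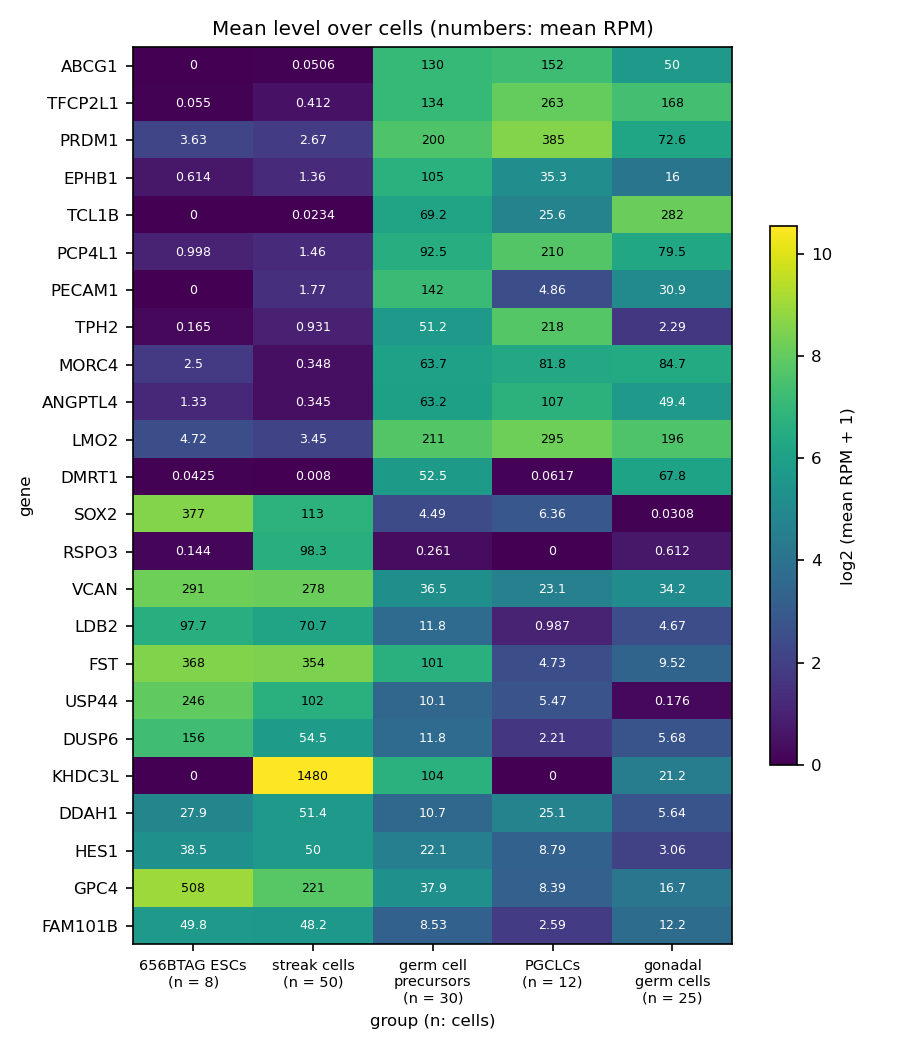
Mean RPM over cells (numbers) and log2 of mean RPM + 1 (colour) of the 12 largest rises and 12 largest falls in 656BTAG ESCs, streak cells, germ cell precursors, PGCLCs and gonadal germ cells. DMRT1 is at 52.5 RPM in precursors and 0.0617 in PGCLCs, and TPH2 at 217.9 RPM in PGCLCs and 2.29 in gonadal cells.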

How the data were processed

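Single-cell cDNA was sequenced from the 3-prime end (SC3-seq). The deposited RPM table has 26018 genes and 605 cells. The submitters' processing notes list Cufflinks 2.2.0, TopHat 1.4.1 and cutadapt 1.3. The genome build is not given in the sources used here, and positions are left out. RPM summed to between 988458 and 996773 per cell. Gene names written as LOC numbers were replaced from RefSeq's table (assembly T2T-MFA8v1.1, used for names alone) in 673 cases. Whether reads were counted by strand is not given, so overlapping antisense genes cannot be told apart.

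Table columns carry the sample titles. Cells were gated as described, and the members, gene lists and tests were chosen with earlier results of these data known. The mean RPM of a class on a day was the unit. Genes with at least 10 RPM in 2 units were tested in R 4.3.3 with limma 3.58.1 (moderated, with a trend; log2(mean RPM + 1), day as block, 3 days, 2 residual degrees of freedom, two-sided, Benjamini-Hochberg over all genes tested). An adjusted p under 0.05 is a call; the 4 gate genes were left out of the table of tested genes. An exact permutation of 3 days could not go below p = 0.25. The p-values measure a gene's own spread between days only in part. Of 11.9 total degrees of freedom, 9.9 were the prior that limma takes from all genes. How many embryos a day holds is unknown. The day is the only pairing, since it is part of the design.

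Named genes were the 12 largest called differences in each direction with the same sign on every day, at least 50 RPM in the higher class and a symbol, the called members of the lists, and members of 6 lists (early and late germ cell, shared and primed pluripotency, streak factors and signals) whether called or not. Of 24 lists, the 1 of HOX genes (2 tested) had no called member.

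RPM values were whole multiples of the value of 1 read: 99.81% of the values of 78 precursor and streak cells lay within 0.1 read of a whole number. These recovered counts gave the depths and an edgeR 4.0.16 fit (34 higher, 6 lower), added after the data were seen, as were the runs without title code MS117, without precursors of PRDM1 under 20 RPM, and without precursors of FOXA2 at 100 RPM or more. Other alternatives were quantile normalization, pseudocount 10, no filter, logs or medians over cells, other minimum cell numbers, no block, each day left out, units of day and title code, and other gates. The script was tested on simulated data. Some members of the lists are counted but not reported here by name.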

Additional observations from a re-analysis of the deposited data

Results flagged for a closer look

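In 17 of 96 groups of 4 to 10 cells of 1 class on 1 day, the highest or lowest cell lay apart from the others by Dixon's 95% criterion; chance alone gives about 1 in 20 groups, and groups in which most cells are at 0 pass it with 1 small value. Among streak cells of E17, 1 cell held PRDM1 at 123.2 RPM, and single cells held PECAM1 at 16.93, ANGPTL4 at 4.97, EPHB1 at 0.86 and VCAN at 20.12 RPM. Among streak cells of E13, single cells held LMO2 at 14.8, TPH2 at 0.91 and PCP4L1 at 0.77 RPM. Among precursors of E13, single cells held SOX2 at 10.37, HES1 at 2.83 and LDB2 at 2.59 RPM, and 1 held ANGPTL4 at 0 RPM. Among precursors of E17, single cells held VCAN at 44.4, FST at 4.61, LDB2 at 0.57 and USP44 at 0.57 RPM, and 1 held TPH2 at 0 RPM. Their causes were not tested.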

How the results depend on the processing

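Against streak cells 8.12% of the genes tested were called. Without the MS117 cells the share was 1.31%, with edgeR 0.414% (34 higher, 6 lower), in units of day and title code 0.145% (11 higher, 3 lower) and with logs averaged over cells 15.0%. With no filter on low values limma called 0 of 20851 genes, with 2393 at an unadjusted p under 0.05; edgeR was run on filtered genes, 9666 in all, and called 40. Leaving out 1 day at a time gave 3.60% to 7.48%, lowest without E17. Against T-negative epiblast cells 14.7% were called, 1.23% with no filter, 4.99% without the MS117 cells and 2.21% to 9.57% with 1 day left out. Without the replicate block for day the shares were 5.55% and 10.3%. All other alternatives run stayed within 1.5 times of both shares. The median difference of all genes moved to -0.19 with logs averaged over cells, -0.17 with medians over cells, -0.15 without the MS117 cells and -0.11 in units of day and title code. None of the 24 genes named by size changed sign in the alternatives run. Uncalled genes did. MESP1 went from 0.63 to -0.68 with a pseudocount of 10 RPM, -0.56 without E13, -0.63 without E17 and -2.71 in units of day and title code. HAND1 went from -0.17 to 0.64 with logs averaged over cells, 0.46 with medians over cells, 1.44 with days of at least 1 cell per class, 2.39 without E16, 0.16 without E17 (and -3.04 without E13), and 0.68 without streak cells of MESP1 at 20 RPM or more. GSC went from -0.86 to 0.82 without E17 (and -3.07 without E13) and 0.0434 without the MS117 cells. The called gene TOP2A went to 0.0838 in units of day and title code. The causes of these changes were not tested. The tests rest on 3 days, of which E17 has 5 precursors.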

Other observations

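Further groups of genes, chosen after their values had been seen and therefore given without a test of the group, differed between the classes. Of 28 tested lysosomal genes 13 were higher in precursors than in streak cells and none lower, with a median difference of 1.11 against 0.01 over all genes tested. The shares over all genes tested were 4.14% higher and 3.98% lower. The cysteine protease CTSV stood at 624 RPM in precursors and 36.6 in streak cells (3.95, adjusted p = 7.61e-05 by limma). The acid lipase LIPA stood at 94.1 and 7.58 RPM (3.31), the protease CTSK at 143.9 and 16.3 RPM (3.03) and the amidase AGA at 200.5 and 36.8 RPM (2.34).

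The sterol exporters ABCA1 (223.3 and 16.1 RPM; 3.74, adjusted p = 0.000999 by limma) and ABCG1 were both higher. Of 19 tested genes of cholesterol synthesis none was higher and 5 were lower, against 3.98% lower of all genes tested. The 5 were HMGCS1, IDI1, SQLE, CYP51A1 and SREBF2, and the median of the list was -0.52. HMGCS1 stood at 100.7 RPM in precursors and 389 in streak cells (-1.998, adjusted p = 0.00213 by limma). Without the MS117 cells the calls of LIPA, AGA, IDI1, SQLE, CYP51A1 and SREBF2 were lost (adjusted p of 0.0698, 0.0829, 0.1265, 0.0671, 0.0658 and 0.2167 by limma). IDI1, SQLE, CYP51A1 and SREBF2 were also not called without E16 or without E17 (0.0533 to 0.1053), nor was SREBF2 without E13 (0.1334).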
